A study of Mus musculus with 9 samples.

Results

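Zinc handling in mouse bone marrow-derived dendritic cells (DCs) was examined through 6 genes: the metallothioneins *Mt1* and *Mt2*, the zinc-sensing transcription factor *Mtf1*, the zinc exporter *Slc30a1* (ZnT1), and the importers *Slc39a8* (ZIP8) and *Slc39a14* (ZIP14). They were taken from the deposited count table by gene symbol. Each symbol was found on a single row, so that 6 of 55471 genes are members, and all 6 were among the 16260 genes that passed the low-count filter.

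Zinc in mammalian cells is held at low free levels by binding proteins and by transporters that move it across membranes. Metallothioneins are small, cysteine-rich proteins that bind zinc and copper. ZnT (Slc30a) proteins move zinc out of the cytosol, either out of the cell or into organelles, and ZIP (Slc39a) proteins move it into the cytosol. MTF-1, the product of *Mtf1*, binds metal response elements and induces *Mt1*, *Mt2* and *Slc30a1* when zinc rises. Glucocorticoids and inflammatory cytokines are also known inducers of metallothioneins, and ZIP8 and ZIP14 are known for their regulation in inflammation. Zinc handling in DCs and macrophages is best known from studies of host defence, in which these cells deprive microbes of zinc or expose them to an excess of it.

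The cells came from wild-type (WT) C57BL/6 marrow. The study's methods give female mice of 8 to 20 weeks and culture with GM-CSF, a growth factor that yields DC-like cells together with macrophage-like cells. There were 3 unstimulated libraries, 3 from DCs activated with LPS, the bacterial outer membrane component, at 100 ng/mL, and 3 from DCs treated with IFN-β, a type I interferon, at 1000 U/mL, all at 6 h. The libraries of each condition carry the letters A, B and C. Neither the labels nor the methods say whether the letters mark separate mice or cultures, so the p-values measure the spread between these libraries, which may be technical.

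Library totals over genes ran from 33425803 to 43735199 counts. Expression is given as CPM, counts normalised to the library size after TMM scaling, and 3 counts, the smallest number taken as detectable, corresponded to 0.0674 to 0.106 CPM. A gene was called changed at an adjusted p under 0.05 in the quasi-likelihood F test of edgeR, with p-values adjusted (Benjamini-Hochberg) over every gene tested. TMM factors lay between 0.783 and 1.26 and differed between conditions. When libraries were scaled by total counts only, the median log2 fold change of all tested genes moved by -0.58 for LPS, by -0.31 for IFN-β and by 0.27 for IFN-β against LPS. The share of called genes that were higher moved from 48.1% to 21.9%, from 50.3% to 22.3% and from 52.5% to 77.9%, respectively. For the 6 genes, values with total counts only are given below where they changed a direction or a call, and for the transporter, regulator and copper lists the splits of calls are given with both scalings. The summed level of 6 conventional DC markers was 4330 to 5180 CPM in unstimulated libraries, 6090 to 6730 CPM with LPS and 4850 to 5130 CPM with IFN-β. That of 5 macrophage and monocyte markers was 1450 to 1760, 2290 to 2790 and 1970 to 2250 CPM, so both sums were highest with LPS. *Cd74* made up most of the DC sum, with means of 2537 CPM in unstimulated libraries, 3607 CPM with LPS and 2687 CPM with IFN-β. Under LPS *Itgax*, *Zbtb46*, *H2-Ab1*, *Cd74* and *Ccr7* were called higher, and *Flt3* was not called (log2 fold change 0.19, adjusted p = 0.667). Of the macrophage and monocyte markers, *Cd14*, *Fcgr1*, *Mertk* and *Adgre1* were called higher under LPS (log2 fold changes 3.21, 2.20, 1.74 and 1.23). Only *Csf1r* was called lower (-0.97). *Cd14* had a mean of 75.8 CPM in unstimulated libraries and 699.7 CPM with LPS, whereas *Csf1r* had 1101 and 562 CPM. The part of cell composition in the results was not tested. A list of 3 fibroblast markers summed to 1.21 to 5.2 CPM. Markers of B cells, T cells, NK cells, mast cells and basophils, and erythroid cells summed to at most 0.354 CPM per list in any library, and the erythroid marker *Hbb-bs* had 0 counts in every library. *Il12b* and *Nos2*, markers of LPS activation, rose by 10.05 and 10.89 on the log2 scale with LPS, and *Ifit1* and *Mx1*, interferon-induced genes, rose by 4.93 and 3.39 with IFN-β. Of these 4 genes, 3 rose with both stimuli: *Ifit1* and *Mx1* rose by 6.47 and 4.32 with LPS, and *Nos2* by 5.38 with IFN-β, whereas *Il12b* was at 0.33 with IFN-β (adjusted p = 0.134).

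On the GRCm38 assembly with GENCODE M21 genes, *Mt2* (chr8:94172664-94173568, plus strand) and *Mt1* (chr8:94179082-94180327, plus strand) are neighbours, separated by 5513 bases. *Mt3* and *Mt4* lie further upstream in the same cluster. *Mtf1* is at chr4:124802104-124849800, *Slc30a1* at chr1:191906767-191913247 and *Slc39a8* at chr3:135825279-135888572, all on the plus strand, and *Slc39a14* is at chr14:70303469-70351425 on the minus strand. The upstream sequences of *Mt2*, *Mt1* and *Slc30a1* are shown because these are the known MTF-1 targets among the 6 genes, and their responses to LPS and IFN-β differed, as described below. Each line holds the 250 bases before the RefSeq start on the plus strand of GRCm38.p6. Capitals mark matches to the metal response element core, TGCACNC or TGCGCNC, on either strand.
Mt2 (chr8:94172368-94172617): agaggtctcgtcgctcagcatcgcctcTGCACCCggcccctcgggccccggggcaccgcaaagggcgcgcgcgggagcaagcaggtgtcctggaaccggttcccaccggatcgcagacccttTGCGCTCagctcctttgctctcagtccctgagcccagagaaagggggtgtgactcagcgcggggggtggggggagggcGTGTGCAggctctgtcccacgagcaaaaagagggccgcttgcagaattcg
Mt1 (chr8:94178839-94179088): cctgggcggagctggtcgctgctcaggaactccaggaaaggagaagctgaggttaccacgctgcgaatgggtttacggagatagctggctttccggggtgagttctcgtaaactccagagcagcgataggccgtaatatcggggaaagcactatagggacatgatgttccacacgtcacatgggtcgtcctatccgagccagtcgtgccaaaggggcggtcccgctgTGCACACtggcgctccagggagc
Slc30a1 (chr1:191906531-191906780): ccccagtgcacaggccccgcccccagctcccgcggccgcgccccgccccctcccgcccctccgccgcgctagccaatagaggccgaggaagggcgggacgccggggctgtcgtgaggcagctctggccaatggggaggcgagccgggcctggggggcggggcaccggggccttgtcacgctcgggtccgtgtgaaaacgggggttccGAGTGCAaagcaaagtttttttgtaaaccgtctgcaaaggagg

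The search covered 300 bases, the 250 shown and the first 50 from the start, in 32851 RefSeq promoter windows. *Mt2* held 4 matches to the metal response element core, a number reached by 0.295% of windows, and 3 of them fall in the bases shown. *Mt1* held 3 (1.31% of windows have at least as many), and *Slc30a1* held 2 (6.14%), each with 1 in the bases shown. The windows of the other members held fewer: *Slc39a8* had 0 in the first of its 2 windows and 1 in the second, and *Mtf1* had 0, whereas 25.7% of all windows hold at least 1. The *Mt2* window also held an AP-1 match (TGANTCA, in 7.81% of windows), which overlaps its match to the antioxidant response element (TGACNNNGC, in 12.4%). *Slc30a1* and the first *Slc39a8* window held an antioxidant match each. No window of these genes matched the STAT element GAS (TTCNNNGAA, in 8.3% of windows), the interferon-stimulated response element (in 3.44%) or the NF-kB consensus (in 4.51%). These matches describe letters in a short window. GENCODE also places starts of *Mt1* transcripts downstream, at positions 94179211 and 94179241. These lie past the end of the *Mt1* window, and the bases between were not searched. The count for *Mt1* therefore holds for its RefSeq start only. The first GENCODE start of *Mt2*, 94172664, is downstream of the RefSeq start, 94172618.

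**Figure D1:**
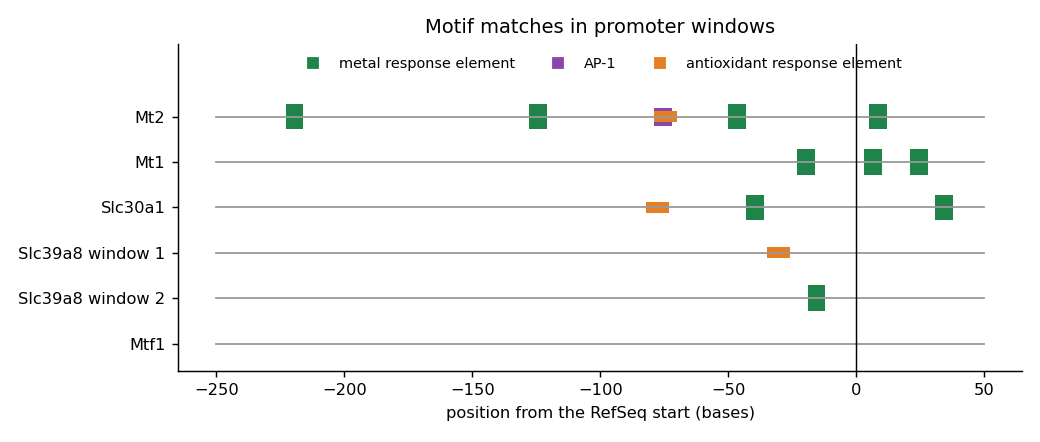
Matches to 3 motifs in the 300-base RefSeq promoter windows of 5 genes, by distance from the start in bases (x axis), with the start at the vertical line. *Mt2* carries 4 metal response element cores (green), *Mt1* 3 and *Slc30a1* 2, and the AP-1 and antioxidant matches of *Mt2* overlap.

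*Mt2* rose under LPS and *Mt1* did not, although both encode zinc-binding metallothioneins and lie side by side. In unstimulated DCs *Mt2* was at 1.9, 3.17 and 6.7 CPM in libraries A, B and C. It was at 29.9, 24.9 and 42.0 CPM with LPS and at 1.55, 1.99 and 5.72 CPM with IFN-β. All LPS libraries were above all others, and the unstimulated and IFN-β libraries overlapped. The log2 fold change was 3.03 under LPS (SE 0.49, adjusted p = 0.000232), or 8.17-fold, and -0.37 under IFN-β (SE 0.52, adjusted p = 0.59). The 2 responses differed by -3.40 on the log2 scale (SE 0.51, adjusted p = 0.000258). Leaving out library C of the unstimulated group gave 3.65 for LPS, and leaving out library C of the IFN-β group gave -4.19 for the difference. In bulk RNA, a change in the number of cells that express a gene and a change in RNA per cell cannot be told apart.

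*Mt1* was at 17.8, 21.4 and 28.4 CPM in unstimulated libraries A, B and C, at 18.0, 20.8 and 26.3 CPM with LPS, and at 9.06, 10.8 and 15.7 CPM with IFN-β. The LPS and unstimulated libraries covered the same range, and all IFN-β libraries were below both. The log2 fold change under LPS was -0.05 (95% interval -0.54 to 0.43, adjusted p = 0.838). *Mt1* fell under IFN-β (log2 fold change -0.93, SE 0.22, adjusted p = 0.00596) and was lower with IFN-β than with LPS by 0.88 (adjusted p = 0.00799). With scaling by total counts only, the value under LPS was -0.64 (adjusted p = 0.0267), close to the median of all tested genes, -0.62, and the fall under IFN-β was -1.25.

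The ratio of the 2 metallothioneins within a library does not depend on scaling. *Mt1* counts were 9.36, 6.77 and 4.24 times those of *Mt2* in unstimulated libraries A, B and C, and 5.86, 5.4 and 2.74 times with IFN-β. With LPS the order was turned, and *Mt2* counts were 1.66, 1.19 and 1.6 times those of *Mt1*. The log2 ratio of *Mt2* to *Mt1* averaged -2.69 ± 0.57 (SD, n = 3) without stimulus, was above 0 with LPS at 0.55 ± 0.26, and was -2.14 ± 0.60 with IFN-β. It differed by 3.24 between LPS and unstimulated DCs (exact permutation p = 0.1, two-sided, the smallest that 3 against 3 allows) and by 0.55 between IFN-β and unstimulated DCs (exact permutation p = 0.4). Over all 9 libraries the exact permutation p of the one-way F statistic was 0.0143.

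**Figure D2:**
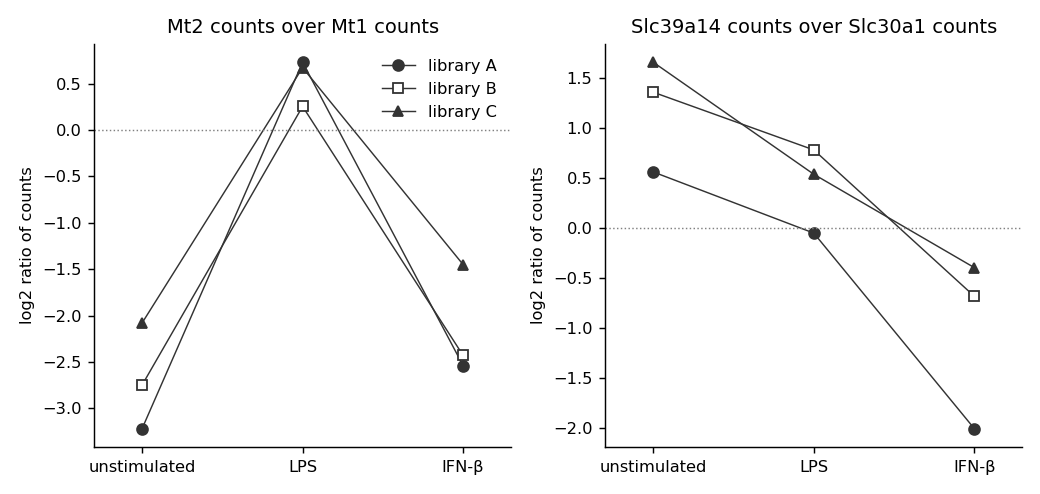
Log2 ratio of counts within each library (y axis) for *Mt2* over *Mt1* (left) and *Slc39a14* over *Slc30a1* (right) in the 3 conditions (x axis), with lines joining libraries of the same letter. The *Mt2* ratio is above 0 in the 3 LPS libraries and below 0 in the other 6.

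*Mtf1*, which encodes the zinc sensor that drives metallothionein transcription, had the smallest SD relative to its mean of the 6 genes in each condition. It was at 35.1, 35.0 and 32.5 CPM in unstimulated DCs, at 46.7, 45.5 and 43.0 CPM with LPS and at 42.5, 39.0 and 40.7 CPM with IFN-β. The 3 conditions did not overlap, and the order was LPS, IFN-β, unstimulated. *Mtf1* rose under LPS (log2 fold change 0.40, SE 0.06, adjusted p = 0.000239) and under IFN-β (0.25, SE 0.06, adjusted p = 0.00841). The difference between the responses, -0.15, did not pass the test (adjusted p = 0.0815) but did with the library letters as a block (adjusted p = 0.0333). These small changes depended on the scaling: with total counts only, *Mtf1* was at -0.18 under LPS (adjusted p = 0.0184), at -0.055 under IFN-β and at 0.13 for IFN-β against LPS, all 3 with the sign turned. In that scaling *Mtf1* still lay above the median of all tested genes under LPS (-0.62) and under IFN-β (-0.32).

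*Slc30a1*, whose product exports zinc across the plasma membrane, rose under both stimuli. It was at 22.7, 15 and 13.8 CPM in unstimulated libraries A, B and C, at 83.8, 44.9 and 44.5 CPM with LPS and at 90.8, 45.2 and 36.0 CPM with IFN-β. Every stimulated library was above every unstimulated library, and the LPS and IFN-β libraries overlapped. The log2 fold change was 1.75 under LPS (SE 0.37, adjusted p = 0.00144) and 1.74 under IFN-β (SE 0.37, adjusted p = 0.00277), 3.36-fold and 3.35-fold. The difference between the responses was -0.0063, with a 95% interval of -0.78 to 0.77 (adjusted p = 0.991), and 0.28 with total counts only (adjusted p = 0.485). Within libraries A, B and C, IFN-β and LPS differed by 0.115, 0.00958 and -0.301 on the log2 scale, and the fit with the letters as a block gave -0.048 (adjusted p = 0.662). Library A was the highest of its condition in all 3 conditions. Without library A of the LPS group the rise was 1.38 (adjusted p = 0.00551), and without library A of the IFN-β group it was 1.24 (adjusted p = 0.00764).

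*Slc39a14*, which encodes an importer of zinc, iron and manganese, moved in opposite directions under the 2 stimuli. It was at 33.5, 38.6 and 43.5 CPM in unstimulated DCs, at 80.9, 77.2 and 64.6 CPM with LPS and at 22.5, 28.1 and 27.3 CPM with IFN-β, and the 3 conditions did not overlap. It rose by 0.95 under LPS on the log2 scale (SE 0.12, adjusted p = 4.09e-05) and fell under IFN-β (log2 fold change -0.57, SE 0.12, adjusted p = 0.00316). The responses differed by -1.51 (SE 0.12, adjusted p = 3.48e-06). Both directions were kept with scaling by total counts only, where the values were 0.36 (adjusted p = 0.0251) and -0.88 (adjusted p = 0.000206). *Slc39a14* counts were 1.48, 2.56 and 3.15 times those of *Slc30a1* in unstimulated libraries A, B and C, 0.965, 1.72 and 1.45 times with LPS and 0.248, 0.622 and 0.759 times with IFN-β. The log2 ratio of this importer to the exporter thus went from 1.19 ± 0.57 (SD, n = 3) to 0.42 ± 0.43 with LPS (exact permutation p = 0.2) and -1.03 ± 0.86 with IFN-β (exact permutation p = 0.1).

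*Slc39a8*, which encodes an importer of zinc and manganese, had few counts, 17 to 40 per library. It was at 0.76, 0.898 and 0.812 CPM in unstimulated DCs, at 1.27, 1.05 and 0.799 CPM with LPS and at 0.398, 0.531 and 0.58 CPM with IFN-β. The IFN-β libraries were below all others, and the LPS and unstimulated libraries overlapped. The log2 fold change under LPS was 0.33 (95% interval -0.19 to 0.84, adjusted p = 0.23), and it was -0.26 with scaling by total counts only. *Slc39a8* was lower with IFN-β than with LPS by 1.05 on the log2 scale (SE 0.25, adjusted p = 0.00528). The fall against unstimulated DCs (log2 fold change -0.72, SE 0.25, adjusted p = 0.0346) was not called without any of unstimulated libraries A, B and C or IFN-β libraries A and B (adjusted p of 0.0502, 0.101, 0.0707, 0.127 and 0.0672), nor by DESeq2 (adjusted p = 0.0721). The log2 ratio of *Slc39a14* to *Slc39a8* was 5.52 ± 0.17 (SD, n = 3) in unstimulated DCs, 6.15 ± 0.17 with LPS (exact permutation p = 0.1) and 5.67 ± 0.13 with IFN-β (exact permutation p = 0.3).

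**Figure D3:**
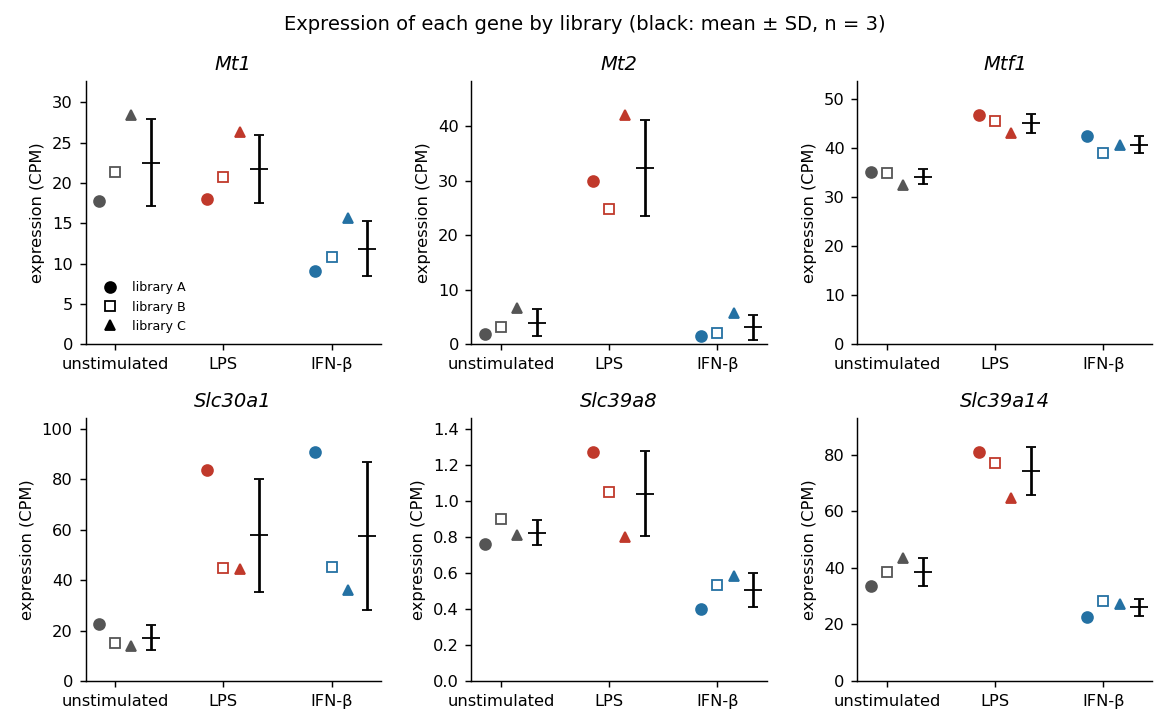
Expression in CPM (y axes, from 0) of the 6 genes in each library, by condition, with the mean ± SD (n = 3) in black and the library letter as the symbol. *Mt2* stands out with LPS, *Slc30a1* is high with both stimuli and highest in library A, and *Slc39a14* is high with LPS and low with IFN-β.

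Of the 6 genes, 4 were called under LPS, all higher, where 68.2% of all tested genes were called (32.8% higher and 35.4% lower). With total counts only, 3 were called higher and 2 lower under LPS, 1 higher and 3 lower under IFN-β, and 0 higher and 4 lower between the stimuli. That scaling called 12683 of the 16260 tested genes under LPS. Of all genes it called, 21.9%, 22.3% and 77.9% were higher in these 3 comparisons. In the main fit 5 were called under IFN-β, 2 higher and 3 lower, against 46.9% of all tested genes (23.6% higher and 23.3% lower). Between IFN-β and LPS 4 were called, all lower with IFN-β, against 49.1% (25.8% higher and 23.3% lower). The 6 genes had a median absolute change (log2) of 0.67 under LPS, 0.64 under IFN-β and 0.96 between the stimuli, and all tested genes had 0.65, 0.35 and 0.38. Both stimuli are compared with the same unstimulated libraries. For single genes, the exact permutation p of the one-way F statistic over the 3 conditions, without adjustment for the 6 tests, was 0.00357 for *Mtf1* and *Slc39a14*, the smallest that the assignments of 9 libraries to 3 groups of 3 can give. It was 0.0107 for *Slc39a8*, 0.0214 for *Mt2* and 0.0357 for *Mt1* and *Slc30a1*.

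Levels can be compared between genes only per length, here as CPM per kilobase of annotated exons. In unstimulated DCs *Mt1* was the highest of the 6, at 18.1 ± 4.3 CPM per kilobase (SD, n = 3), followed by *Mt2* at 6.67 ± 4.2. *Mtf1* (3.84), *Slc39a14* (3.65) and *Slc30a1* (3.28) came next, and neighbours from *Mt2* to *Slc30a1* in this order overlapped between libraries. *Slc39a8* was the lowest at 0.107. With LPS the order was *Mt2* (54.9), *Mt1* (17.4), *Slc30a1* (11), *Slc39a14* (7.04), *Mtf1* (5.06) and *Slc39a8* (0.136), with overlap between *Mt1* and *Slc30a1* only. With IFN-β it was *Slc30a1* (10.9), *Mt1* (9.49), *Mt2* (5.25), *Mtf1* (4.57), *Slc39a14* (2.46) and *Slc39a8* (0.0656), and the first 3 each overlapped with the next. With the length of the longest transcript in place of all exons, *Slc39a14* changed places with *Mtf1* in unstimulated DCs and with *Slc30a1* under LPS. The exon length of *Mt1*, 1246 bases, is its whole span, because an annotated transcript of 1085 bases is unspliced. Its other transcripts have 549 and 633 exon bases. The longest transcript is the unspliced one for *Mt1* and retains an intron for *Slc39a14* and *Slc39a8*. A shorter length would raise *Mt1* per kilobase, so its place below *Slc30a1* with IFN-β depends on the length used.

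The spread between libraries of the same condition followed the library letters. *Mt1* was lowest in A and highest in C in all 3 conditions, and C was 1.6, 1.46 and 1.73 times A in unstimulated, LPS and IFN-β libraries. *Mt2* was highest in C in all conditions, with C at 3.53 times A in unstimulated DCs and 3.7 times A with IFN-β, but at 1.4 times A with LPS, where B was the lowest. *Slc30a1* went the other way, with A at 1.65, 1.88 and 2.52 times C. *Slc39a8* and *Slc39a14* had no letter order shared by the 3 conditions. The neutrophil marker list moved with the same letters: its 8 genes, of which 5 passed the low-count filter, summed to 23.1, 10.1 and 11.6 CPM in unstimulated libraries A, B and C, to 25.6, 13.3 and 15.9 CPM with LPS, and to 19.7, 9.61 and 9.72 CPM with IFN-β. The highest sum was in A and the lowest in B in every condition. *S100a8*, *S100a9*, *Ngp* and *Ltf* were highest in A in every condition, and *S100a8* and *S100a9* made up most of the sum. *Camp* was highest in B with IFN-β and *Ly6g* in B with LPS and IFN-β, both at low levels. *Mpo*, also low, was highest in B with LPS and in C with IFN-β, and *Elane* had at most 2 counts per library. The part of these cells in the spread of the 3 genes was not tested. *Slc39a4*, known for zinc uptake in the intestine and named here after its values were seen, followed the order of *Mt1*. It was at 21.4, 24.7 and 33.8 CPM in unstimulated libraries A, B and C, at 15.4, 19.1 and 27.6 CPM with LPS and at 17.6, 21.1 and 31.0 CPM with IFN-β. Its log2 fold change under LPS, -0.36, had an adjusted p of 0.224 without the letters and 0.000111 with the letters as a block. The value under IFN-β, -0.20, went from 0.542 to 0.0107 in the same way, and the difference between the stimuli, 0.16, from 0.627 to 0.0426. Under LPS *Slc39a4* was also called with total counts only (-0.95, adjusted p = 0.00702) and without a filter on low counts.

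**Figure D4:**
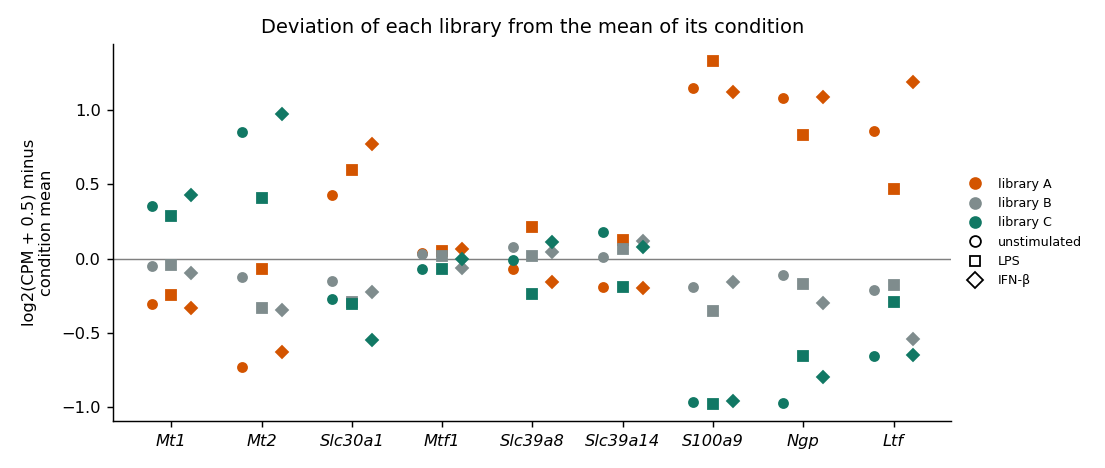
Log2(CPM + 0.5) of each library minus the mean of its condition (y axis) for the 6 genes and the neutrophil markers *S100a9*, *Ngp* and *Ltf* (x axis), with the letter as the colour and the condition as the symbol. The 3 markers plotted were chosen from the list of 8 after their values were seen. *Mt1* and *Mt2* are highest in C, and *Slc30a1* and these 3 markers are highest in A, in every condition.

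The wider families were examined as a list of 28 genes, the 4 metallothioneins, 10 Slc30a and 14 Slc39a genes, of which 22 were tested. LPS changed 14 of them, 8 higher and 6 lower, IFN-β changed 14, 6 higher and 8 lower, and 15 differed between the stimuli, 7 higher and 8 lower with IFN-β. These are 63.6%, 63.6% and 68.2% of the 22, beside 68.2%, 46.9% and 49.1% of all tested genes. The median log2 fold change of the 22 was 0.0010 under LPS, -0.059 under IFN-β and 0.018 between the stimuli, and that of all tested genes was -0.042, -0.017 and 0.020. With scaling by total counts only the splits were 4 higher and 15 lower under LPS, 2 and 10 under IFN-β, and 11 and 5 between the stimuli. Of the metallothioneins outside the 6 genes, *Mt4* had 0 counts in every library and *Mt3*, best known from the brain, had 12 to 46. *Mt3* was lower under LPS (log2 fold change -0.73, adjusted p = 0.036), although the libraries overlapped, and was higher with IFN-β than with LPS by 1.22 (adjusted p = 0.0034). The call under LPS was lost with DESeq2, with the 2 groups alone, and without unstimulated library A or B or LPS library B or C (adjusted p of 0.0616, 0.104, 0.125 and 0.123).

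All 6 tested Slc30a genes were called under LPS, 5 of them higher, where 68.2% of all tested genes were called and 32.8% were higher. Under IFN-β 5 were called, 4 higher and 1 lower, against 46.9% of all tested genes. With total counts only, 2 were higher and 3 lower under LPS, and 1 was higher and 1 lower under IFN-β. Among all genes called in that scaling, 21.9% were higher under LPS and 22.3% under IFN-β. Beside *Slc30a1*, *Slc30a4*, which loads zinc into endosomal vesicles, rose from 35.4, 37.2 and 42.7 CPM in unstimulated libraries A, B and C to 121, 99.4 and 115 CPM with LPS and to 52.4, 52.4 and 58.5 CPM with IFN-β. Its log2 fold change was 1.54 under LPS (SE 0.10, adjusted p = 1.71e-07) and 0.50 under IFN-β (SE 0.09, adjusted p = 0.0015), and the responses differed by -1.04 (adjusted p = 8.2e-06). *Slc30a5* and *Slc30a6*, whose products pair to move zinc into the early secretory pathway, went apart. *Slc30a5* fell under LPS (-0.79) and IFN-β (-0.47), whereas *Slc30a6* rose by 0.59 under LPS and was at 0.15 under IFN-β (adjusted p = 0.136). *Slc30a7*, of the Golgi, and *Slc30a9* rose by 0.33 and 0.39 with LPS, and by 0.37 and 0.35 with IFN-β. With total counts only, *Slc30a7* and *Slc30a9* turned to -0.26 and -0.19 under LPS, *Slc30a6* was at 0.0082, and *Slc30a1*, *Slc30a4* and *Slc30a5* kept their direction and call under LPS. Under IFN-β the calls of *Slc30a4* (0.19, adjusted p = 0.116), *Slc30a7* (0.062, adjusted p = 0.342) and *Slc30a9* (0.041, adjusted p = 0.66) were then lost. *Slc30a8* and *Slc30a10* had 0 counts in every library, which allows at most 0.0674 to 0.106 CPM, *Slc30a2* and *Slc30a3* had 1 count in all, and none of these 4 was tested.

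Of 13 tested Slc39a genes, 6 were called under LPS, 2 higher and 4 lower, and 8 under IFN-β, 2 higher and 6 lower. These are 46.2% and 61.5% of the 13, beside 68.2% and 46.9% of all tested genes. With total counts only, 1 was higher and 10 were lower under LPS, and 1 was higher and 8 were lower under IFN-β. Among all genes called in that scaling, 21.9% were higher under LPS and 22.3% under IFN-β. Of the 13 genes, *Slc39a14* had the largest rise under LPS. The other gene called higher under LPS was *Slc39a1*, a zinc importer (0.48), which turned to -0.10 with total counts only. *Slc39a12*, with 5 to 40 counts per library, had the largest fall under LPS (log2 fold change -1.80, SE 0.36, adjusted p = 0.00106) and was at -0.049 under IFN-β. *Slc39a10*, an importer at the plasma membrane, went from 69.6, 52.5 and 47.4 CPM in unstimulated libraries A, B and C to 24.8, 20.7 and 19.2 CPM with LPS and to 43.2, 36.5 and 27.5 CPM with IFN-β. Its log2 fold change was -1.39 under LPS (adjusted p = 5.04e-05) and -0.66 under IFN-β (adjusted p = 0.011), and the responses differed by 0.73 (adjusted p = 0.00677). *Slc39a11* fell under both (-0.87 and -0.31). *Slc39a13*, the remaining gene that fell under LPS, was at -0.53. These 4 falls under LPS were also called with total counts only.

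*Slc39a2* was the Slc39a gene with the largest rise under IFN-β, and 151 of its exon bases overlap *Mettl17* on the same strand. It was at 20.3, 22.2 and 14.6 CPM in unstimulated libraries A, B and C, at 23.6, 21.4 and 18.6 CPM with LPS and at 47.6, 46.8 and 40.3 CPM with IFN-β. The IFN-β libraries were above all others. The log2 fold change was 1.24 under IFN-β (SE 0.15, adjusted p = 7.73e-05) and 0.16 under LPS (adjusted p = 0.366; -0.43 with total counts only, adjusted p = 0.0152), and the responses differed by 1.08 (adjusted p = 0.000141). *Slc39a6*, an importer (-0.32), and *Slc39a3* (-0.24) also fell under IFN-β, the latter call being lost without unstimulated library A or B or any of the 3 IFN-β libraries (adjusted p of at most 0.131). Among genes that did not pass the test under either stimulus, *Slc39a7*, of the endoplasmic reticulum, had 61 to 127 counts. These are uncertain because 2084 of its 2584 exon bases are shared on the same strand with the annotated transcript Gm20427. With total counts only, *Slc39a7* was called under LPS (-0.78, adjusted p = 0.000753). *Slc39a4* is described above, *Slc39a9* was at -0.12 under LPS and -0.066 under IFN-β (-0.70 and -0.37 with total counts only, both called), and *Slc39a5* had at most 4 counts per library and was not tested.

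**Figure D5:**
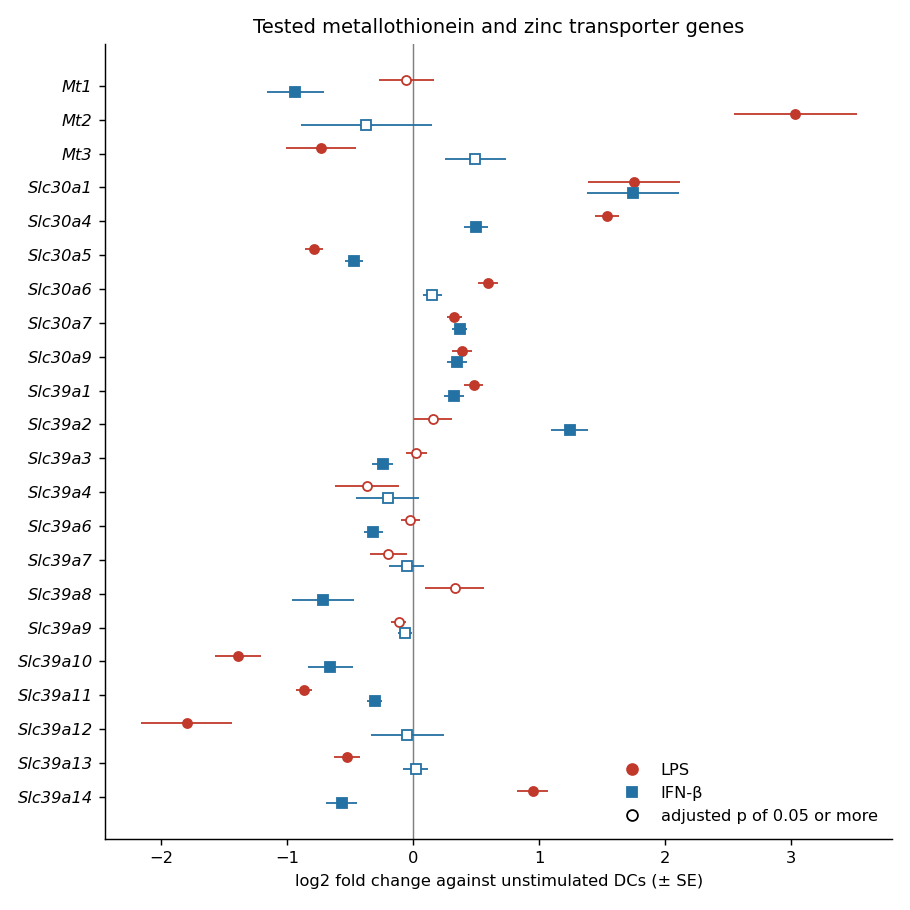
Log2 fold change against unstimulated DCs with its SE (x axis) for the 22 tested genes of the metallothionein, Slc30a and Slc39a families under LPS (red circles) and IFN-β (blue squares), with open symbols where the adjusted p was 0.05 or more. Most transporters lie within 1 of 0. *Mt2*, *Slc30a1* and *Slc30a4* are far to the right under LPS, and *Slc30a1* and *Slc39a2* under IFN-β. *Slc39a12* and *Slc39a10* are far to the left under LPS, and *Slc39a14* is on opposite sides under the 2 stimuli.

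The regulators known to act on metallothionein genes were all called and higher under both stimuli, 5 of 5, where 68.2% of all tested genes were called under LPS and 46.9% under IFN-β. Scaling by total counts only called 2 higher and 1 lower under LPS, and 2 higher and 0 lower under IFN-β. It called 12683 of the 16260 tested genes under LPS. Among all genes it called, 21.9% were higher under LPS and 22.3% under IFN-β. Beside *Mtf1*, *Stat3*, which carries the signal of IL-6 and IL-10, rose from 180, 156 and 154 CPM in unstimulated libraries A, B and C to 631, 514 and 484 CPM with LPS and 259, 228 and 238 CPM with IFN-β, or by 1.73 and 0.56 on the log2 scale. *Nr3c1*, the glucocorticoid receptor, rose by 1.33 with LPS and by 0.67 with IFN-β. *Usf1*, which shares 200 exon bases with *Tstd1* on the same strand, rose by 0.57 and 0.34, and *Nfe2l2*, the regulator of the antioxidant response, by 0.47 and 0.29. The call under IFN-β was lost for *Usf1* without unstimulated library B or IFN-β library A (adjusted p of at most 0.0558) and for *Nfe2l2* without unstimulated library B (adjusted p = 0.0508). *Stat3* (-1.17) and *Nr3c1* (-0.66) were lower with IFN-β than with LPS. Thus 2 of the 5 regulators differed between the stimuli, beside 49.1% of all tested genes. With the letters as a block *Mtf1* (-0.15, adjusted p = 0.0333), *Usf1* (-0.22, adjusted p = 0.00697) and *Nfe2l2* (-0.18, adjusted p = 0.0344) were also called lower. The block called more genes in general under LPS, 11950 against 11084 in the main fit. With total counts only, *Stat3* and *Nr3c1* kept their direction and call under both stimuli. In that scaling *Usf1* was at -0.016 under LPS and 0.035 under IFN-β, and *Nfe2l2* at -0.12 and -0.021. *S100a8* and *S100a9*, whose products form the secreted zinc-binding protein calprotectin, were not called in any comparison of the main fit, at 6.48 to 15.2 CPM and 0.768 to 6.06 CPM. Between the stimuli *S100a8* was near the threshold (-0.63, adjusted p = 0.0552). That difference was called by DESeq2, without a filter, with the 2 groups alone and in 4 of 9 fits with 1 library left out. Scaling by total counts only called *S100a8* under IFN-β (-0.58, adjusted p = 0.0427). With the letters as a block, *S100a8* was called in all 3, at 0.37 (log2) under LPS (adjusted p = 0.00154), -0.26 under IFN-β (adjusted p = 0.0205) and -0.63 between the stimuli (adjusted p = 3.11e-05).

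The genes most like each of the 6 across the 9 libraries were ranked by Pearson's r of log2(CPM + 0.5) over about 12750 genes with a mean of at least 1 CPM. The points share library, condition and depth, so r is given as a description. *Mt1* was most like *Mki67*, a proliferation marker (r = 0.97), *B3galt2* (0.97) and *Prdm10* (0.96). *Mt2* was most like *Pilrb2* (0.99), *Spaca6* (0.99) and *Fah* (0.99), *Mtf1* like *Ccndbp1*, *Snw1* and *Ppp4r1* (each 0.99 or above), and *Slc30a1* like *Tlr8*, a receptor for single-stranded RNA, *Ogfrl1* and *Prdx4* (each 0.98). *Slc39a8* was most like *Wbp11* (0.97), *Hectd4* (0.97) and *Ran* (0.96), and *Slc39a14* like *Zfp599* (0.99), *Polr2g* (0.99) and *Rdh10* (0.99). With Spearman's rho, 1 of the 3 genes named for *Slc39a14* stayed among its top 3, and 0 of those named for the other 5. *Mt2* ranked 982 of 12750 in likeness to *Mt1* (r = 0.61), whereas *Slc39a14* ranked 40 of 12751 for *Slc39a8* (r = 0.90).

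Annotated exons on the opposite strand overlap 3 of the 6 genes. Gm45774 covers 432 of the 588 exon bases of *Mt2* and had 1 to 10 counts per library, against 66 to 1366 for *Mt2*. 1700034H15Rik covers 468 bases of *Slc30a1* and had 8 to 60 counts, and 1110065P20Rik covers 721 bases of *Mtf1* and had 98 to 216. The strand setting of the counting was read from the table itself. Of 439 genes that lie wholly inside exons of the opposite strand, 242 had counts, whereas of 711 genes wholly inside exons of the same strand, 1 had counts.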

How the data were processed

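RNA sequencing of 9 mouse DC libraries was analysed: 3 unstimulated, 3 LPS and 3 IFN-β, all at 6 h. According to the methods, the authors extracted RNA with TRIzol, removed ribosomal RNA with a KAPA kit, trimmed reads with Trim Galore, mapped them to mm10 with STAR and counted them on GENCODE genes. The submitters' processing notes name Trim Galore 0.6.0 and STAR 2.7.8a, whereas the methods give an earlier version of STAR. The GENCODE release of the counts in the methods is also earlier than the M21 release used here for exon lengths and coordinates. The authors deposited raw counts per gene, without normalization or a filter. All 9 columns of values were used. Whether the counting used strand is not given in the sources used here and was checked on the counts, as described above.

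As in the study's methods, edgeR with TMM factors, quasi-likelihood F tests, Benjamini-Hochberg adjustment, a threshold of 0.05 and the contrast between the stimuli were used. The versions (edgeR 4.0.16 in R 4.3.3), filterByExpr by group as the low-count filter and 1 model of 3 conditions over all 9 libraries were chosen here. The SE is the absolute log2 fold change divided by the square root of F. Intervals are 95% intervals from the moderated t distribution. Single values were compared by two-sided exact permutation tests, and ratios used a pseudocount of 0.5 counts. Intervals include the spread between these libraries. The floor of 3 counts covers sampling only, and the reads carry no molecular identifiers. The code was tested on simulated data in which few genes changed, and only with LPS, so that test cannot decide between the scalings. Coordinates are from GENCODE M21 (GRCm38), in which 55144 of 55471 identifiers were found, and promoter windows from RefSeq (GRCm38.p6), matched for 5 of the 6 genes. *Slc39a14* had no entry. Mouse age, doses and the exact culture are those of the study's methods.

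The 6 genes and the lists were chosen with earlier results of these data known. The named genes were the 6 genes with every library. Of each zinc family, up to 3 genes with the largest called change per direction and comparison were named, with those under 3 counts in all libraries. All regulators, calprotectin genes and copper genes, the 3 genes most like each of the 6 and 4 stimulation markers were also named. The list genes named beyond this rule were chosen after their values were seen. The library letters were left out of the model, since the sources do not say what they mark. After subtracting condition means, same-letter libraries correlated at 0.134 to 0.546 across genes (9 pairs), over the 0.1 set for pairing, and a further fit had the letters as a block. All replicate pairs differed by more than sampling noise. Alternatives were DESeq2 1.42.0, scaling by total counts, upper-quartile factors, no filter, at least 10 counts in every library, the 2 compared groups alone, each library left out, stricter thresholds, other pseudocounts and the longest transcript.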

Additional observations from a re-analysis of the deposited data

How the results depend on the processing

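Of 18 fold changes of the 6 genes, those of *Mt2* under LPS, *Slc30a1* under either stimulus, *Slc39a14* in all 3 comparisons, *Mt1* under IFN-β and both metallothioneins and *Slc39a8* between the stimuli kept direction and call under all 16 alternative fits. With scaling by total counts only, *Mt1* under LPS was at -0.64 and called, *Mtf1* turned to -0.18 under LPS, -0.055 under IFN-β and 0.13 between the stimuli, *Slc39a8* turned to -0.26 under LPS and *Slc30a1* to 0.28 between the stimuli. The last value, near 0 in the main fit, also turned to 0.0064 with upper-quartile factors, 0.018 without a filter, 0.0023 with at least 10 counts and 0.018 with the 2 groups alone. *Slc39a8* under IFN-β lost its call with DESeq2 (-0.71) and without a filter (-0.72). The replicate block called *Mtf1* between the stimuli (-0.15) and changed no other call of the 6 genes. Leaving out 1 library gave -0.21 to 0.14 for *Mt1* under LPS, -1.16 to 0.25 for *Mt2* under IFN-β, -0.83 to -0.57 for *Slc39a8* under IFN-β and -0.51 to 0.35 for *Slc30a1* between the stimuli. The cause was not tested. With a change of at least 1 (log2, either direction) also required, 2 of the 6 genes were called under LPS. So were 5 of the 22 tested genes of the zinc list and 5429 of the 16260 tested genes. Under IFN-β the calls were 1, 2 and 2052. Between the stimuli they were *Mt2*, *Slc39a14* and *Slc39a8* of the 6 genes, 7 of the zinc list and 2834 of all tested genes. Ratios kept their direction and moved by less than the spread between libraries with pseudocounts of 0 and 5 counts. Depth limits *Slc39a8*, *Slc39a12* and *Mt3*, with at most 46 counts per library. The median log2 fold change moved between scalings by -0.58 under LPS, -0.31 under IFN-β and 0.27 between the stimuli. Changes smaller in size than the shift of their own comparison are within it.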

Other observations

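Copper shares the metallothioneins with zinc, and 7 of 8 tested genes of copper handling were called under LPS, 4 higher and 3 lower, and 5 under IFN-β, 4 higher and 1 lower. Of all tested genes, 68.2% and 46.9% were called. With scaling by total counts only the splits were 3 higher and 4 lower with LPS, and 3 higher and 3 lower with IFN-β. Among all genes called in that scaling, 21.9% were higher with LPS and 22.3% with IFN-β. *Cp*, which encodes ceruloplasmin, a copper-carrying ferroxidase, was at 2.2, 1.82 and 2.23 CPM in unstimulated libraries A, B and C, at 143, 106 and 91.9 CPM with LPS and at 13.8, 12.2 and 15.8 CPM with IFN-β. Its log2 fold change was 5.77 under LPS (SE 0.20, adjusted p = 4.76e-09) and 2.74 under IFN-β (SE 0.19, adjusted p = 2.51e-06), by edgeR's quasi-likelihood test, and the responses differed by -3.03 (adjusted p = 2.04e-07). The copper importer *Slc31a1* rose by 1.42 with LPS and by 0.73 with IFN-β, and its relative *Slc31a2* rose by 1.63 and 0.90. These 3 genes kept their direction and call with total counts only.

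*Atp7a*, the copper-exporting ATPase, rose by 0.71 with LPS and by 0.39 with IFN-β, but was at 0.13 and 0.081 with total counts only (adjusted p = 0.12 and 0.357). *Atp7b*, the other copper ATPase, had at most 9 counts per library and was not tested. The copper chaperones *Ccs* and *Atox1* fell under LPS, with log2 fold changes of -0.49 and -0.25. Under IFN-β *Ccs* was at -0.28 (adjusted p = 0.0445), a call lost without any of the 3 unstimulated libraries, LPS library B or IFN-β library A or B (adjusted p of at most 0.14), and *Atox1* was at -0.16 (adjusted p = 0.099). *Sod1*, the copper-zinc superoxide dismutase that *Ccs* serves, was at -0.060 under LPS (adjusted p = 0.513) and -0.17 under IFN-β (adjusted p = 0.0995), and at -0.64 and -0.47 with total counts only.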
